A study of Mus musculus with 24 samples.

Results

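Immunoglobulin variable segments are the germline pieces that encode the part of an antibody chain which meets antigen. The segments described here are the gene symbols that begin with Ighv, Igkv or Iglv and whose counts sum to at least 100 over all 24 libraries of the series. They were selected on these summed counts. The rule took 194 of 346 such symbols, out of 55025 symbols in the table, namely 98 heavy chain, 93 kappa chain and 3 lambda chain segments. Of the 152 symbols left out, 34 had no count in any library, and the 194 segments held 99.6% of all variable segment counts. The last segments taken were Igkv4-83, Igkv3-3 and Ighv1-62-1 with totals of 103.74, 105.05 and 105.11 counts, and the first left out were Igkv12-38, Ighv5-2 and Ighv8-13 with 97.52, 95.71 and 92.39. Since the total chose the segments, their overall abundance is a description. The median segment had 1432 counts in all, the highest had 62232, and the 10 highest held 37.9% of the counts.

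All mice were TCRα-/-, so they lack an intact gene for the T cell receptor alpha chain, and no wild-type group was sequenced. Each bore an M8 organoid tumor in the pancreas and received either LCL161 or vehicle. LCL161 is a SMAC mimetic, a small molecule that triggers degradation of the ubiquitin ligases cIAP1 and cIAP2. It was given by oral gavage at 75 mg/kg in 3 doses, 3 days apart from day 4, and tissue was harvested on day 12. Leukocytes were sorted as CD45+CD8+ or CD45+CD4+ from tumor and spleen, which gives 8 groups of 3 libraries. They are tumor CD8 LCL161, tumor CD8 vehicle, tumor CD4 LCL161, tumor CD4 vehicle, spleen CD8 LCL161, spleen CD8 vehicle, spleen CD4 LCL161 and spleen CD4 vehicle. Whether the 3 replicates of a group are different mice is not in the labels, and p-values therefore measure only the spread between these samples, which may be technical.

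In a developing B cell one heavy variable segment is joined to a diversity and a joining segment, and one kappa or lambda variable segment is joined to a joining segment, by the RAG recombinase. The joined gene is spliced to a constant gene such as Ighm or Igkc, and plasma cells carry far more of this RNA per cell than resting B cells. A diverse B cell population therefore reads many segments, which need not be used equally, whereas an expanded clone reads 1 heavy and 1 light segment. T cells and dendritic cells do not assemble immunoglobulin genes productively, so in CD4 or CD8 sorts these transcripts are usually counted as B lineage RNA. In bulk RNA, fewer cells of a type and less RNA per cell cannot be told apart.

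In GENCODE M21 on GRCm38 the heavy segments lie on chromosome 12 between 113588267 and 116000461, the kappa segments on chromosome 6 between 67555497 and 70704177, and the lambda segments on chromosome 16 between 19085017 and 19260859. The annotation calls 183 of them functional and 11 pseudogenes. Their exons span 334 to 501 bases with a median of 359, so counts of different segments are close to comparable per length. For 104 of the 194, the closest other segment is at least 95% identical, and for 4 it is at least 99% identical. Reads from such near-copies can be split between them, so the values of single segments carry that uncertainty, and 77.7% of the non-zero segment values were fractions of a count. The stretch below is the last 90 bases of the variable exon, from the GENCODE M21 transcripts, for 6 segments that led at least 1 library, among all or among heavy segments, and for Ighv1-74 and Ighv7-1, which were called when spleen CD8 vehicle libraries were compared with LCL161 and with CD4 libraries. Capitals mark the codon of the conserved cysteine that closes the variable fold, and the bases after it begin the third complementarity-determining region.
Igkv14-111: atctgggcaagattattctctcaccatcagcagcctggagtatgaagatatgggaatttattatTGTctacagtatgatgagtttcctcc
Igkv8-30: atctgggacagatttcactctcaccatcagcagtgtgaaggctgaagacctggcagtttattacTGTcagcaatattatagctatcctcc
Igkv1-117: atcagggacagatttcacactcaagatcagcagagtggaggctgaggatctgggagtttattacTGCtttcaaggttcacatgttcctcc
Ighv1-81: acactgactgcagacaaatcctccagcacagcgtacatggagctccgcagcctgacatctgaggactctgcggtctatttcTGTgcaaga
Ighv5-17: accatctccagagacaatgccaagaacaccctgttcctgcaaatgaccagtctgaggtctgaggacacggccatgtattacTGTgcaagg
Ighv1-53: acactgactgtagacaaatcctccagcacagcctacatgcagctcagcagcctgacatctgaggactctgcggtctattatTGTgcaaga
Ighv1-74: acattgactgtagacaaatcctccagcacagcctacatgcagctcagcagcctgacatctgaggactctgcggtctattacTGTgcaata
Ighv7-1: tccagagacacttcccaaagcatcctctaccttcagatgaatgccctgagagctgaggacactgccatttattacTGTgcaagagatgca

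These stretches lie at chr6:68256780-68256869 on the plus strand for Igkv14-111, chr6:70117061-70117150 on the minus strand for Igkv8-30, and chr6:68121738-68121827 on the plus strand for Igkv1-117. The heavy stretches lie at chr12:115920279-115920368 on the minus strand for Ighv1-81, chr12:113859149-113859238 on the minus strand for Ighv5-17, and chr12:115158403-115158492 on the minus strand for Ighv1-53. Those of the other 2 lie at chr12:115802648-115802737 on the minus strand for Ighv1-74 and chr12:113896408-113896497 on the minus strand for Ighv7-1. The start of the lambda exons is shown because Iglv1 led most spleen CD4 libraries and differs little from Iglv2. Iglv1 (chr16:19085022-19085321 on the minus strand) and Iglv2 (chr16:19260406-19260705 on the minus strand) differ at 9 of the 305 bases of the exon (97.0% identity), of which the first 300 are printed with the bases that differ in capitals.
Iglv1: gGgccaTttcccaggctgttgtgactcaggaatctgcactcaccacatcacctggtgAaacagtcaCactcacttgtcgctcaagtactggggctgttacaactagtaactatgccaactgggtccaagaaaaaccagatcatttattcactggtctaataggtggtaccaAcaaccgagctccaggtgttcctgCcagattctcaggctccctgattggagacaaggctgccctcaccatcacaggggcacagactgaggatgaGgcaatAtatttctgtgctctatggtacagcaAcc
Iglv2: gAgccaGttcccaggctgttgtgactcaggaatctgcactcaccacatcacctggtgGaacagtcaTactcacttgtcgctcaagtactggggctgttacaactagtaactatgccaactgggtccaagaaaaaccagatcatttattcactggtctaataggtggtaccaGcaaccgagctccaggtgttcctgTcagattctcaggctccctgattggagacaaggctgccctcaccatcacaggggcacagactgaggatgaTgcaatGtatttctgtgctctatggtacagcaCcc

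Library totals were 15.5 to 25.1 × 1e6 counts, of which the segments took 15433 to 107350 counts in spleen and 178 to 4573 in tumor. Shares from the tumor libraries are therefore far less precise. The sorts matched their labels, since Cd8a ran from 565 to 1159 CPM (counts in 1e6 counts of the scaled library) in CD8 libraries, against 0.0549 to 3.98 CPM in CD4 libraries. Trac, the disrupted alpha chain constant gene, still had 9.30 to 35.5 CPM in CD8 and 63.2 to 1082 CPM in CD4 libraries, and with no wild-type group its loss could not be set against a control. T cell genes (7 genes summed) reached 2334 to 5502 CPM. A list of 16 B cell identity genes summed to 103 to 546 CPM in tumor and 983 to 3495 CPM in spleen. In tumor CD8 vehicle libraries its members Cd72 and Spib averaged 78.3 and 49.7 CPM, against 3.34 CPM for Cd79a and 0.0991 CPM for Pax5. In spleen CD8 vehicle libraries Cd72 averaged 83.7 CPM and Cd79a 249 CPM, so the sum does not give the tissue difference of each member. B lineage transcripts, among them the segments, were read in every library beside those of T cells, and at a higher level in spleen.

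Usage of segments set some libraries apart. For each pair of libraries the overlap of usage was taken as the sum, over segments, of the smaller of both shares, so that identical usage gives 100%. Spleen CD8 LCL161 libraries 2 and 3 overlapped by 85.0%, whereas the other 65 pairs of spleen libraries overlapped by 37.0% to 70.6% with a median of 52.9%. Of 68 segments with at least 100 counts in both, 61 (89.7%) agreed within 2-fold in share, against at most 72.7% in any other spleen pair. They still differed beyond counting error, with a chi-square per segment of 20.04.

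Tumor CD8 LCL161 library 3 overlapped with spleen CD8 LCL161 library 3 by 89.5% and with spleen CD8 LCL161 library 2 by 82.4%, but by at most 61.9% with the other 21 libraries. Its segment shares could not be told from those of spleen library 3 beyond counting error, with a chi-square per segment of 1.06 over 137 segments, while over all 17123 genes with at least 20 counts the chi-square per gene was 59.7. The level of several B lineage transcripts in it was a like fraction of that in spleen library 3, namely 6.11% for all segments, 6.12% for the plasma cell gene Jchain, 6.28% for Ighg2c and 5.82% for Igha. In tumor libraries 1 and 2 of that group all segments reached 1.43% and 0.853% of the same-numbered spleen library, and Jchain 0.0691% and 0.288%. Ighg2b, Ighg3 and Iglc1 were at 7.09%, 6.94% and 5.63% in library 3, against at most 1.40% in libraries 1 and 2. Ighg1 was at 3.94%, against 0% in both. Ighd, Igkc and Iglc2 were at 6.65%, 7.21% and 7.85%, against 1.66%, 5.24% and 5.67% in library 1 and 4.19%, 2.32% and 4.12% in library 2. In contrast Ighm, Iglc3 and the summed B cell identity genes did not set library 3 apart. Ighm was at 9.02% there, against 11.3% and 7.82% in libraries 1 and 2. Iglc3 was at 21.3%, against 33.3% and 27.2%, and the sum of the 16 B cell identity genes at 18.7%, against 17.3% and 20.6%. Cd72, Blk and Spib had the highest means of the 16 in this tumor group, at 71.7, 40.3 and 33.2 CPM. Cd79a averaged 10.2 ± 6.02 CPM and Cr2 1.43 ± 1.57 CPM (SD). The sum therefore does not show whether such low members set library 3 apart. How the 3 libraries come to share this usage was not tested. The number of segments called in spleen CD8 and the summed levels in tumor CD8 are given below with and without some of them. Other results, such as diversity and family shares, are given with them only.

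Tumor CD4 vehicle library 3 stood apart in the other way, with 12.1% to 41.3% overlap with any other library and a median of 17.1%. A single kappa segment, Igkv14-111, made up 56.1% of its segment counts (Wilson 95% interval 54.5% to 57.7%, counting error only). Tumor CD4 vehicle library 2 overlapped most with spleen CD8 vehicle libraries 3 and 2, by 68.8% and 65.3%. Over all 276 pairs the median overlap was 42.9%, and spleen CD8 and CD4 libraries with the same treatment and number overlapped by a median of 49.0%, against 47.8% for those with other numbers.

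**Figure D1:**
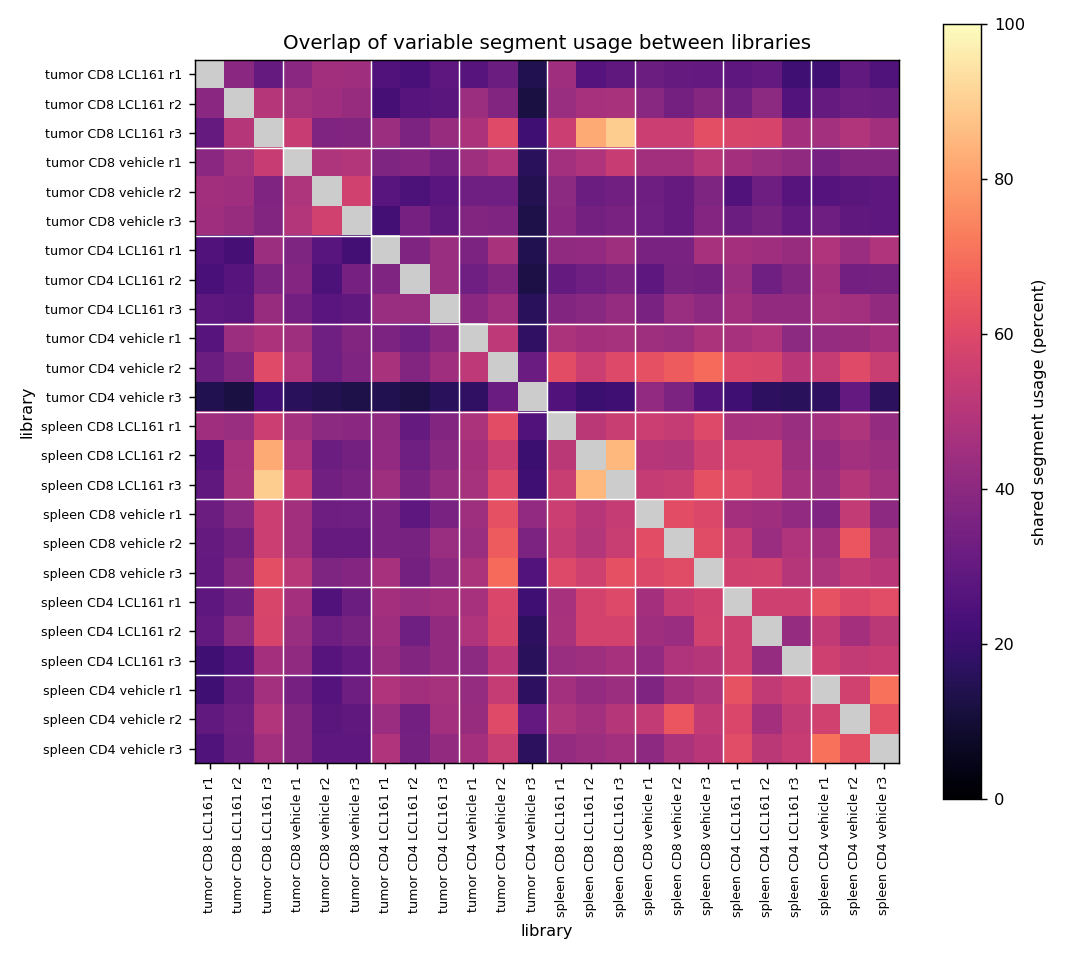
Overlap of variable segment usage (sum of the smaller shares over 194 segments, in percent) for each pair of the 24 libraries, with libraries in the same order on both axes. The block of tumor CD8 LCL161 library 3 with spleen CD8 LCL161 libraries 2 and 3 reaches 82.4% to 89.5%, and the row of tumor CD4 vehicle library 3 stays at or below 41.3%.

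Segment transcripts were scarce in tumor libraries and abundant in spleen libraries. In tumor CD8 LCL161 libraries 1, 2 and 3 the segments summed to 10.6, 21.6 and 98.4 CPM, and in tumor CD8 vehicle libraries to 8.43, 11.5 and 8.26 CPM. In tumor CD4 LCL161 libraries they summed to 39.0, 10.2 and 18.8 CPM, and in tumor CD4 vehicle libraries to 13.5, 232 and 153 CPM. Among tumor libraries, therefore, only tumor CD4 vehicle libraries 2 and 3 passed 100 CPM, and tumor CD8 vehicle libraries had the lowest mean and the narrowest range. In spleen CD8 LCL161 libraries the sums were 743, 2528 and 1610 CPM, and in spleen CD8 vehicle libraries 2420, 4726 and 3462 CPM. In spleen CD4 LCL161 libraries they were 1396, 2898 and 3472 CPM, and in spleen CD4 vehicle libraries 1894, 1829 and 2429 CPM. The 4 spleen groups overlapped, and every spleen library was above every tumor library.

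**Figure D2:**
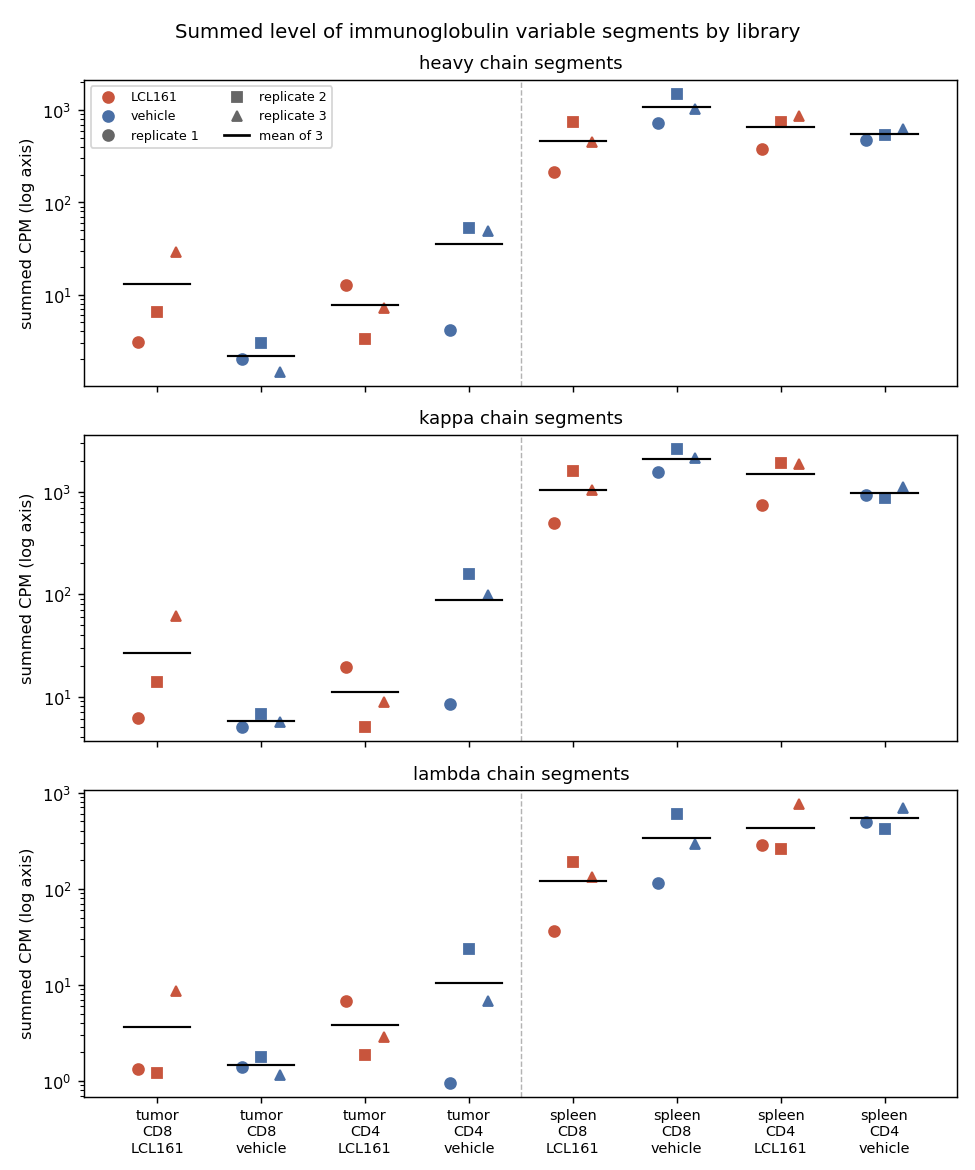
Summed level (CPM, log axis) of heavy, kappa and lambda segments in each of the 24 libraries, with dots for libraries and a bar for the mean of 3. Every spleen library lies above every tumor library in summed level, and tumor CD4 vehicle libraries spread from 13.5 to 232 CPM over all segments.

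By group means, vehicle CD8 libraries had 9.40 ± 1.84 CPM in tumor and 3536 ± 1155 CPM in spleen (SD, n = 3 each), a 376-fold lower level in tumor. Vehicle CD4 libraries had 133 ± 111 CPM in tumor and 2050 ± 329 CPM in spleen, 15.4-fold lower, and this ratio ran from 10.7 to 24.7 as single libraries were left out. With LCL161 the tumor level was 37.4-fold lower than spleen in CD8 and 114-fold lower in CD4 libraries, and the CD8 ratio became 101 without tumor library 3 and the CD4 ratio 178 without tumor library 1. The groups of each of these pairs did not overlap.

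The segments did not account for the same part of all immunoglobulin RNA in each group. In tumor CD8 LCL161 libraries there were 2.80, 2.58 and 13.3 heavy segment counts per 100 counts of heavy constant genes, and in tumor CD8 vehicle libraries 1.48, 1.41 and 0.643. In tumor CD4 LCL161 libraries the ratio was 12.5, 7.49 and 14.5, and in tumor CD4 vehicle libraries 5.07, 10.6 and 20.9. Spleen libraries lay between 13.0 and 20.2. All tumor CD8 libraries but LCL161 library 3 were thus below every other library. Heavy constant transcripts in tumor CD8 libraries were at 111, 251 and 220 CPM with LCL161 and 135, 215 and 225 CPM with vehicle, and apart from LCL161 library 3 between 95.2% and 98.2% of them were Ighm. The kappa ratio was also lowest in these 5 libraries, with 11.8, 20.8 and 44.5 kappa segment counts per 100 Igkc counts in tumor CD8 LCL161 libraries, 16.4, 23.1 and 18.8 in tumor CD8 vehicle libraries, and 45.7 to 55.4 in spleen.

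Lambda segments took a larger share of light chain counts in spleen CD4 vehicle libraries than in any other spleen group. The shares were 6.79%, 18.7% and 12.0% in spleen CD8 vehicle libraries and 35.0%, 32.6% and 38.7% in spleen CD4 vehicle libraries, and these groups did not overlap. With LCL161 they were 6.78%, 10.7% and 11.3% in spleen CD8 and 28.0%, 11.9% and 29.0% in spleen CD4 libraries, where library 2 fell among the CD8 values. In tumor, the shares were 17.5%, 8.0% and 12.3% in CD8 LCL161, 21.7%, 21.1% and 17.0% in CD8 vehicle, 25.7%, 27.3% and 24.3% in CD4 LCL161, and 10.2%, 13.2% and 6.48% in CD4 vehicle libraries. Tumor CD4 LCL161 libraries were thus all above tumor CD4 vehicle libraries, although Wilson 95% intervals were as wide as 20.5% to 36.1% in CD4 LCL161 library 2. The low share of CD4 vehicle library 3 depends on a single segment, since Igkv14-111 made up 87.9% of its kappa counts. In level, lambda segments summed to 6.75, 1.87 and 2.86 CPM in tumor CD4 LCL161 libraries. They summed to 0.957, 23.7 and 6.76 CPM in tumor CD4 vehicle libraries, with overlap. Heavy segments held 17.5% to 37.6% of segment counts in tumor and 24.9% to 32.0% in spleen.

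Iglv1 and Iglv2 carried most lambda counts in spleen. Iglv1 stood at 24.2, 125 and 87.3 CPM in spleen CD8 LCL161 libraries, 92.6, 518 and 205 CPM in spleen CD8 vehicle libraries. In spleen CD4 it stood at 214, 132 and 435 CPM with LCL161 and at 336, 249 and 485 CPM with vehicle. Iglv2 stood at 14.2, 75.1 and 67.6 CPM in spleen CD8 vehicle libraries, all below its 143, 163 and 194 CPM in spleen CD4 vehicle libraries, while the Iglv1 values of these groups overlapped. Neither difference passed the threshold, with adjusted p = 0.316 for Iglv2 and 0.847 for Iglv1 by edgeR's quasi-likelihood test with Benjamini-Hochberg adjustment. Iglv3 followed another pattern, since it varied little among tumor CD8 libraries while the other segments did. It had 1.31, 0.78 and 1.2 CPM in tumor CD8 LCL161 libraries and 0.76, 1.51 and 0.92 CPM in tumor CD8 vehicle libraries, where it made up 100%, 64.9% and 14.1%, and 54.5%, 84.1% and 79.2% of lambda segment counts, whereas in spleen it made up 0.9% to 17.6%.

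Diversity was measured by the effective number of segments, the exponential of the Shannon entropy, which is the number of equally used segments that would give the same entropy. In tumor CD8 LCL161 libraries it was 21.04, 41.1 and 77.0, in tumor CD8 vehicle libraries 49.8, 33.7 and 29.2, in tumor CD4 LCL161 libraries 43.6, 34.6 and 48.6 and in tumor CD4 vehicle libraries 56.1, 70.2 and 8.49. In spleen CD8 LCL161 libraries it was 63.5, 75.1 and 77.1, in spleen CD8 vehicle libraries 46.1, 55.1 and 73.9, in spleen CD4 LCL161 libraries 58.0, 60.8 and 48.1 and in spleen CD4 vehicle libraries 45.8, 44.0 and 45.8. By this measure spleen CD4 LCL161 libraries were all above spleen CD4 vehicle libraries, and spleen CD8 LCL161 libraries overlapped with their vehicle libraries. The 2 highest spleen CD8 LCL161 values belong to the libraries that share usage.

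Between 189 and 194 segments had a count in spleen libraries, against 40 to 171 in tumor libraries, which depends on depth. In a draw of 172 counts from every library, 29.0 to 71.8 segments would be seen in tumor libraries and 55.7 to 70.1 in spleen libraries. At that depth tumor CD8 LCL161 library 3, with 71.5, tumor CD8 vehicle library 1, with 62.3, tumor CD4 LCL161 library 3, with 58.8, and tumor CD4 vehicle libraries 1 and 2, with 62.2 and 71.8, lay among or above the spleen libraries. Spleen CD4 LCL161 libraries overlapped with spleen CD4 vehicle libraries by this measure, with 64.5, 61.02 and 55.7 segments against 55.98, 55.99 and 57.9. Tumor CD8 LCL161 library 1 and tumor CD4 vehicle library 3 were lowest, with 29.0 and 29.8.

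**Figure D3:**
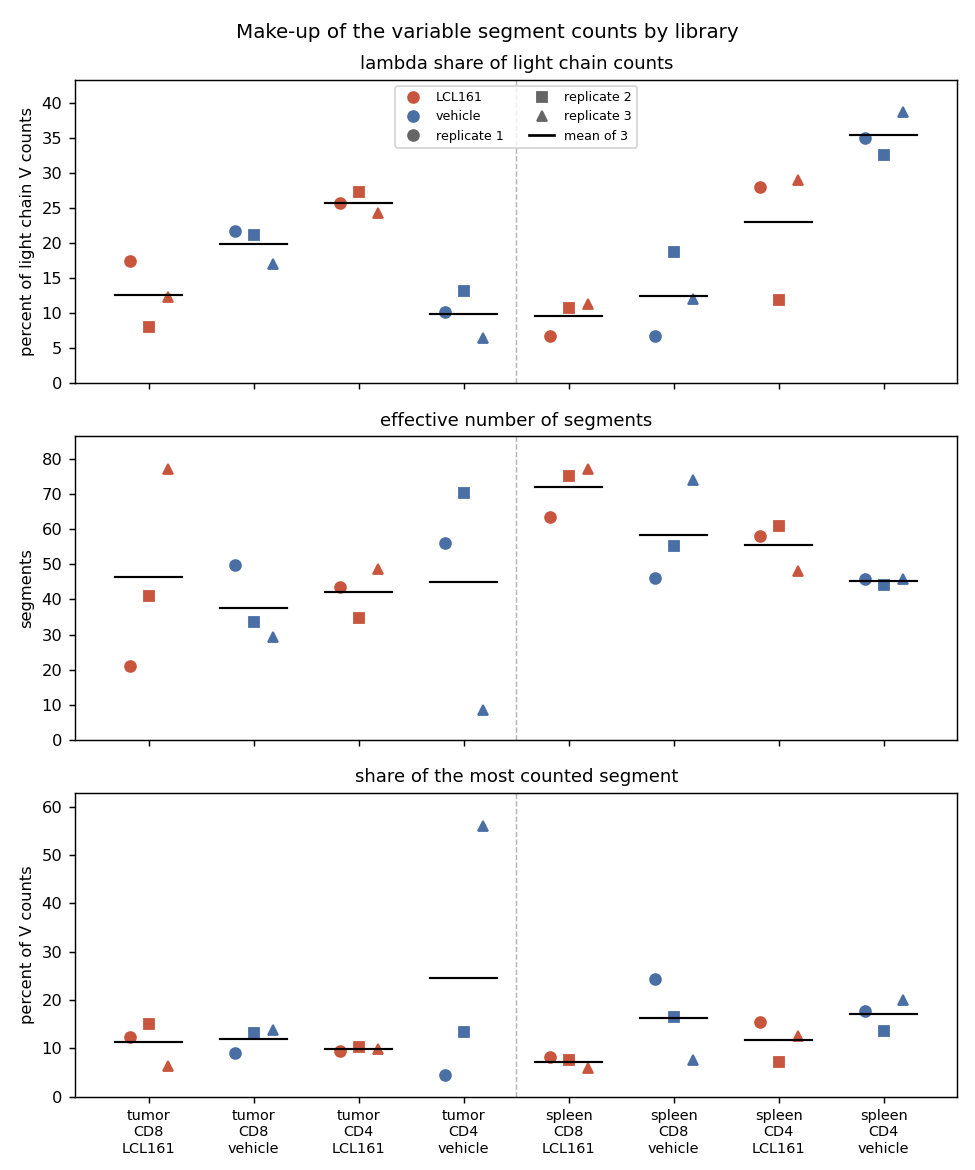
Lambda share of light chain segment counts (%), effective number of segments and share of the top segment (%) in each library, with dots for libraries and bars for the mean of 3. Tumor CD4 vehicle library 3 has the lowest effective number (8.49) and the highest top share (56.1%), and spleen CD4 vehicle libraries have the highest lambda shares (32.6% to 38.7%).

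The leading segment differed by sort in spleen. Igkv14-111 led all 3 spleen CD8 vehicle libraries with 24.4%, 16.5% and 7.64% of segment counts, and Iglv1 led all 3 spleen CD4 vehicle libraries with 17.7%, 13.6% and 19.98%. In spleen CD8 LCL161 libraries Igkv14-111 led library 1 with 8.15%, and Igkv8-30 led libraries 2 and 3 with 7.55% and 6.02%. In spleen CD4 LCL161 libraries Iglv1 led libraries 1 and 3 with 15.4% and 12.5%, and Igkv1-117 led library 2 with 7.22%.

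In tumor the leaders rested on few counts except in tumor CD4 vehicle libraries 2 and 3. There Igkv14-111 led with 13.3% and 56.1%, while library 1 was led by Iglv1 with 4.41% (12.3 counts). Iglv2, Iglv1 and Iglv1 led tumor CD4 LCL161 libraries 1, 2 and 3 with 9.53%, 10.2% and 9.93%. Tumor CD8 LCL161 libraries were led by Iglv3 with 12.4% (22 counts), Ighv1-81 with 14.99% and Igkv8-30 with 6.30%, and tumor CD8 vehicle libraries by Iglv3 with 9.0% (17 counts), Iglv3 with 13.1% and Igkv6-15 with 13.7%. Igkv8-30 in tumor CD8 LCL161 library 3 is also the leader of the spleen CD8 LCL161 libraries with which it shares usage.

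**Figure D4:**
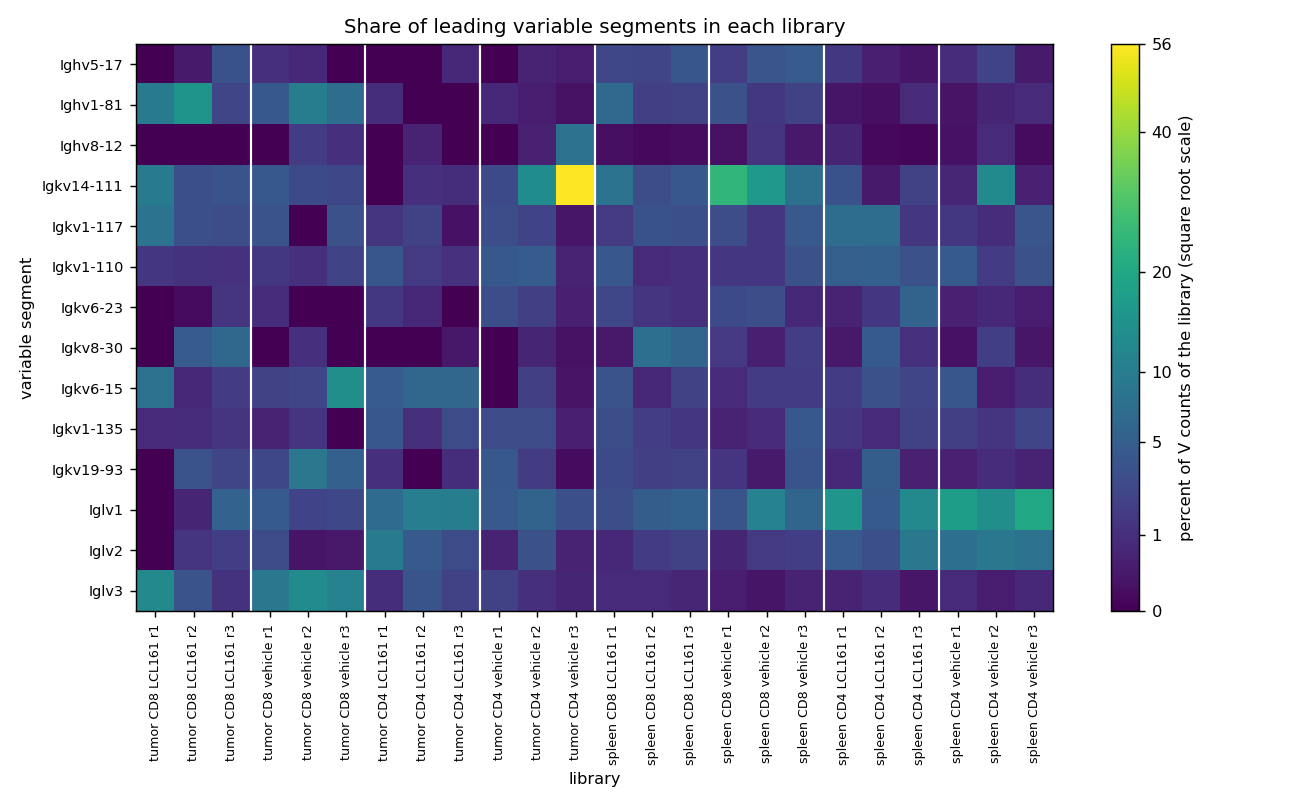
Share of segment counts (%, square-root colour scale) of 14 named segments in each of the 24 libraries. Igkv14-111 reaches 56.1% in tumor CD4 vehicle library 3 and 24.4%, 16.5% and 7.64% in spleen CD8 vehicle libraries, and Iglv1 leads spleen CD4 vehicle libraries.

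Igkv14-111 ranged from no count to 779 CPM. It stood at 0.39, 30.9 and 85.7 CPM in tumor CD4 vehicle libraries and at 0.00, 0.11 and 0.19 CPM in tumor CD4 LCL161 libraries. In tumor CD8 it stood at 1.02, 0.72 and 3.76 CPM with LCL161 and 0.36, 0.33 and 0.22 CPM with vehicle. It stood at 60.6, 79.2 and 66.6 CPM in spleen CD8 LCL161 and 591, 779 and 264 CPM in spleen CD8 vehicle libraries, and at 49.1, 8.55 and 74.7 CPM in spleen CD4 LCL161 and 12.7, 234 and 11.1 CPM in spleen CD4 vehicle libraries. In tumor CD8, tumor CD4 and spleen CD8 the LCL161 and vehicle values did not overlap, and in spleen CD4 they did. In tumor CD4 vehicle library 3 it made up 87.9% of kappa counts, and the effective number of kappa segments there was 2.28.

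That library also read few heavy segments, with an effective number of 12.1. The number was lower still in tumor CD8 LCL161 libraries 1 and 2 (6.60 and 8.63). So it was in tumor CD8 vehicle libraries 2 and 3 (11.7 and 8.62), and these CD8 libraries held fewer segment counts. In tumor CD4 vehicle library 3, Ighv8-12, Ighv1-78 and Ighv1-26 made up 24.8%, 23.3% and 19.4% of heavy counts. Class-switched genes gave 68.9% of its heavy constant counts, against 0.835% and 5.45% in tumor CD4 vehicle libraries 1 and 2. Igha reached 47.0 CPM there, against 0.0482 and 0.813 CPM in libraries 1 and 2, and Jchain, which links IgA and IgM units in plasma cells, reached 26.6 CPM, against 0.289 and 5.18 CPM. In contrast the B cell identity genes summed to 123 CPM in library 3, below the 172 and 546 CPM of libraries 1 and 2.

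Ighv1-81 was the leading heavy segment of 7 of the 12 CD8 libraries and of no CD4 library. It led 5 of the 6 tumor CD8 libraries, with 32.7% and 50.01% of heavy counts in LCL161 libraries 1 and 2 and 17.8%, 37.6% and 40.7% in vehicle libraries, where these shares rested on 8 to 49.5 counts. It also led spleen CD8 LCL161 library 1 with 22.9% and spleen CD8 vehicle library 1 with 11.3%. Ighv5-17 led tumor CD8 LCL161 library 3 with 12.0%, spleen CD8 LCL161 libraries 2 and 3 with 8.41% and 14.6%, and spleen CD8 vehicle library 3 with 15.6%. Spleen CD4 LCL161 libraries were led by Ighv1-53 in libraries 1 and 2, with 8.95% and 12.2%, and by Ighv1-39 with 15.9%. Spleen CD4 vehicle libraries were led by Ighv1-53 with 16.3% and by Ighv6-3 with 16.2% and 14.7%.

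By family, Ighv1, which holds 53 of the 98 heavy segments, took 44.0% to 71.7% of heavy counts and led in every library. The Igkv14 family, with 4 segments, took 13.8%, 6.06% and 7.4% of kappa counts in spleen CD8 LCL161 libraries and 38.1%, 30.0% and 13.4% in spleen CD8 vehicle libraries. The Igkv4 family, with 29 segments, took 26.6%, 16.9% and 18.3% in spleen CD8 LCL161 libraries and 10.01%, 11.8% and 7.23% in spleen CD8 vehicle libraries. The Igkv4 shares did not overlap, whereas for Igkv14 the highest LCL161 share was above the lowest vehicle share. In spleen CD8 vehicle libraries Igkv14-111 alone made up 37.7%, 29.8% and 12.4% of kappa counts, so the Igkv14 share there is mostly that segment. The Igkv4 shares are taken of the same kappa total and are not independent of it.

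Segments were then tested one by one, in a fit of all 20174 genes that passed a filter on low counts, of which 188 of the 194 segments did. Segments pass this filter through the spleen groups, so counts over those tested describe the comparisons and do not stand for all segments. P-values are from edgeR's quasi-likelihood test with Benjamini-Hochberg adjustment over all genes tested, and log2 fold changes carry their SE.

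Between tumor and spleen, in vehicle CD8 libraries, 173 of the 188 segments were lower in tumor and 0 higher, where 6.86% of all genes tested were lower and 7.95% higher. Of these, 86 were heavy, 84 kappa and 3 lambda segments. The median log2 fold change was -8.57, or -7.20 with segments that had no count in tumor set at their bound of 3 counts per library, against 0.03 over all genes. Ighv1-74 had 0.0893, 0.132 and 0 CPM in tumor and 41.4, 15.9 and 7.33 CPM in spleen libraries, a log2 fold change of -8.12 ± 0.86 (adjusted p = 1.73e-05). Igkv4-68, Ighv1-55, Ighv1-59 and Igkv1-110 followed, at -8.72, -9.64, -9.39 and -8.93. In none of these 5 did the tumor and spleen values overlap.

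In vehicle CD4 libraries 103 segments were lower in tumor and 0 higher, where 6.78% of all genes tested were lower and 9.61% higher, and these were 44 heavy, 56 kappa and 3 lambda segments. The median log2 fold change was -3.97, or -3.86 with bounds. Igkv1-122 had 0.00, 0.102 and 0.0269 CPM in tumor and 7.03, 6.95 and 6.16 CPM in spleen libraries (-7.01 ± 1.07, adjusted p = 0.000296), and Ighv1-76 had 0.338, 1.08 and 0.0690 CPM in tumor and 57.2, 17.4 and 59.0 CPM in spleen libraries (-6.52 ± 1.04, adjusted p = 0.000403). Igkv4-68, Igkv4-78 and Igkv4-79 were lower at -4.35, -5.93 and -6.32. Igkv14-111 was not among the called segments, at -1.14 ± 1.11 (adjusted p = 0.510), with tumor libraries 2 and 3 inside its spleen range. Without tumor CD4 vehicle library 1 or 3 the count of called segments was 58 or 63.

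Other B lineage genes were lower in tumor as well. In vehicle CD8 libraries 11 of 16 B cell identity genes, 11 of 12 constant genes and 5 of 10 plasma cell genes were lower, with median log2 fold changes of -4.62, -8.05 and -0.98. Cd79a, a signalling chain of the B cell receptor, averaged 3.34 ± 0.713 CPM in tumor and 249 ± 31.5 CPM in spleen (-6.21 ± 0.89, adjusted p = 0.000186), and Igkc, the kappa constant gene, averaged 29.9 ± 0.813 CPM in tumor and 4179 ± 1076 CPM in spleen (-7.13 ± 0.81, adjusted p = 2.67e-05). Blk and Spib, which other immune cells also express, did not pass, at -1.16 and -1.29. In vehicle CD4 libraries 15 of 16 B cell identity genes, 9 of 12 constant genes and 6 of 10 plasma cell genes were lower, with medians of -3.45, -4.08 and -1.30. Prdm1 in CD8 and Sdc1 and Fkbp11 in CD4 libraries were the plasma cell genes that were higher in tumor; activated T cells can express Prdm1 and epithelial cells Sdc1.

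Between sorts, in vehicle spleen, segments summed to 3536 ± 1155 CPM in CD8 and 2050 ± 329 CPM in CD4 libraries (SD, n = 3 each), 1.72-fold higher in CD8 with overlap. Heavy and kappa segments were 1.99-fold and 2.18-fold higher with no overlap, whereas lambda segments were 1.60-fold lower with overlap, and 2.65-fold lower without CD8 library 2. By segment, 13 were higher and 3 lower in CD8, where 5.32% of all genes tested were higher and 6.09% lower. Of these 11 and 2 were heavy segments.

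Ighv1-74 stood at 41.4, 15.9 and 7.33 CPM in spleen CD8 vehicle and 4.08, 1.14 and 2.05 CPM in spleen CD4 vehicle libraries (3.15 ± 0.62, adjusted p = 0.00277). Ighv7-1 stood at 6.59, 11.6 and 11.9 CPM in CD8 and 0.15, 0.05 and 0.00 CPM in CD4 libraries (7.11 ± 1.70, adjusted p = 0.0174). Ighv1-81 stood at 83.0, 69.7 and 76.8 CPM in CD8 and 3.07, 10.7 and 20.3 CPM in CD4 libraries (2.75 ± 0.83, adjusted p = 0.0383). The sorts did not overlap in any of these 3. Ighv1-50, Ighv5-15 and Ighv1-56 were also higher, at 3.38, 4.76 and 3.32.

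Ighv2-5, Igkv9-124 and Ighv1-20 were the 3 lower segments, at -3.37, -3.66 and -4.24. In vehicle spleen, Igkv9-124 had 4.19, 4.30 and 4.34 CPM in CD8 libraries and 54.6, 29.4 and 79.1 CPM in CD4 libraries (-3.66 ± 1.00, adjusted p = 0.0252). Igkv14-111, the most abundant segment of the CD8 libraries, did not pass (2.66 ± 1.16, adjusted p = 0.151), although its 264 to 779 CPM in CD8 lay above the 11.1 to 234 CPM in CD4. The count of 16 depended on single libraries. It was 1, 7 or 9 without spleen CD4 vehicle library 1, 2 or 3, and 13, 6 or 7 without spleen CD8 vehicle library 1, 2 or 3.

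None of the 16 B cell identity genes passed the threshold between these sorts, with a median log2 fold change of -0.73. Of the constant genes only Ighg3, the IgG3 heavy constant gene, passed. It had 119, 44.2 and 93.2 CPM in spleen CD8 vehicle and 4.57, 8.05 and 6.2 CPM in spleen CD4 vehicle libraries (3.77 ± 0.80, adjusted p = 0.00459). The sorts also differed in conventional dendritic cell genes, of which 4 of 5 were higher in CD8. Xcr1, a receptor of CD8-bearing dendritic cells, averaged 346 ± 18.3 CPM in CD8 and 3.69 ± 0.946 CPM in CD4 libraries (6.55 ± 0.71, adjusted p = 1.53e-05). The summed level of these 5 genes was 947 to 1134 CPM in spleen CD8 vehicle and 62.5 to 173 CPM in spleen CD4 vehicle libraries, and the part of other cells in the segment differences was not tested.

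In vehicle tumor the CD8 libraries had 14.1-fold fewer segment transcripts than the CD4 libraries with no overlap, and the ratio was 8.84 without CD4 library 2. Of the segments tested, 7 (3.72%) were lower in CD8 and 0 higher. Of all genes tested 4.07% were called, 2.37% lower and 1.7% higher, so the share of segments called was close to that of all genes. Igkv14-111 was lower with a log2 fold change of -6.99 ± 1.63 (adjusted p = 0.0195). This rested on tumor CD4 vehicle libraries 2 and 3, since library 1 lay close to the tumor CD8 vehicle libraries for this segment. Ighv1-26, Ighv1-18 and Ighv1-47 had no count in tumor CD8 vehicle libraries, so CD8 was at least 27.6-fold, 8.52-fold and 3.05-fold lower than CD4 against a floor of 3 counts per library. Without tumor CD4 vehicle library 3 these bounds were 4.82-fold, 3.34-fold and 2.55-fold. Without tumor CD8 vehicle library 1, 2 or 3 no segment was called, and without tumor CD4 vehicle library 1, 2 or 3 there were 11, 3 and 5. DESeq2 called 42, where it called 8.17% of all genes with an adjusted p. Of 16 B cell identity genes 4 were lower in CD8 as well and 0 higher, among them Cd79a, Ebf1 and Bank1. Of 12 constant genes only Ighg2c and Igkc passed, and of 10 plasma cell genes only Jchain, all lower in CD8. The median log2 fold changes of these 3 lists were -1.68, -2.40 and -0.18. Some members, such as Blk at 0.88 and Irf4 at 0.31, had positive values and did not pass.

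LCL161 was then set against vehicle in each sort and tissue. In spleen CD8 libraries the segments summed to 1627 ± 893 CPM with LCL161 and 3536 ± 1155 CPM with vehicle (SD, n = 3 each), 2.17-fold lower, and the groups overlapped since LCL161 library 2 was above vehicle library 1. The ratio was 1.71 without LCL161 library 1 and 3.00 without LCL161 library 2. By segment, 18 were lower and 3 higher with LCL161, where 8.28% of all genes tested were called, 4.18% lower and 4.1% higher. The lower ones were 11 heavy and 7 kappa segments, and the median log2 fold change of the 188 was -1.10 against 0.06 over all genes.

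Ighv1-74 stood at 1.30, 3.33 and 2.02 CPM with LCL161 and 41.4, 15.9 and 7.33 CPM with vehicle, a log2 fold change of -3.28 ± 0.63 (adjusted p = 0.00519). Ighv7-1 stood at 0.05, 0.16 and 0.10 CPM with LCL161 and 6.59, 11.6 and 11.9 CPM with vehicle (-6.54 ± 1.63, adjusted p = 0.0297). Igkv2-112 stood at 0.55, 0.33 and 0.29 CPM with LCL161 and 1.03, 9.57 and 11.1 CPM with vehicle (-4.15 ± 0.92, adjusted p = 0.0181). In each, every vehicle library was above every LCL161 library. Ighv1-74 and Ighv7-1 were also higher in spleen CD8 vehicle than in spleen CD4 vehicle libraries, a comparison that shares the CD8 vehicle libraries.

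Ighv10-3 and Igkv4-62 were lower through 1 vehicle library most of all. Ighv10-3 had 0.43, 1.42 and 2.42 CPM with LCL161 and 3.75, 53.3 and 7.0 CPM with vehicle (-3.90 ± 1.06, adjusted p = 0.0308), and Igkv4-62 had 0.22, 0.30 and 0.21 CPM with LCL161 and 0.33, 18.0 and 0.89 CPM with vehicle (-4.72 ± 1.23, adjusted p = 0.0308). The 3 segments that were higher with LCL161 were Ighv9-1, Igkv8-34 and Igkv4-51. Ighv9-1 had 3.34, 12.3 and 5.42 CPM with LCL161 and 1.26, 0.83 and 0.95 CPM with vehicle (2.77 ± 0.65, adjusted p = 0.0199). Igkv8-34 had 0.05, 16.0 and 7.85 CPM with LCL161 and 0.04, 0.04 and 0.09 CPM with vehicle (6.89 ± 1.63, adjusted p = 0.0240), and was high in LCL161 libraries 2 and 3, which share usage, and not in library 1. Igkv4-51, with 0.40, 13.0 and 5.62 CPM with LCL161 and 0.44, 0.35 and 0.48 CPM with vehicle, had the same pattern.

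**Figure D5:**
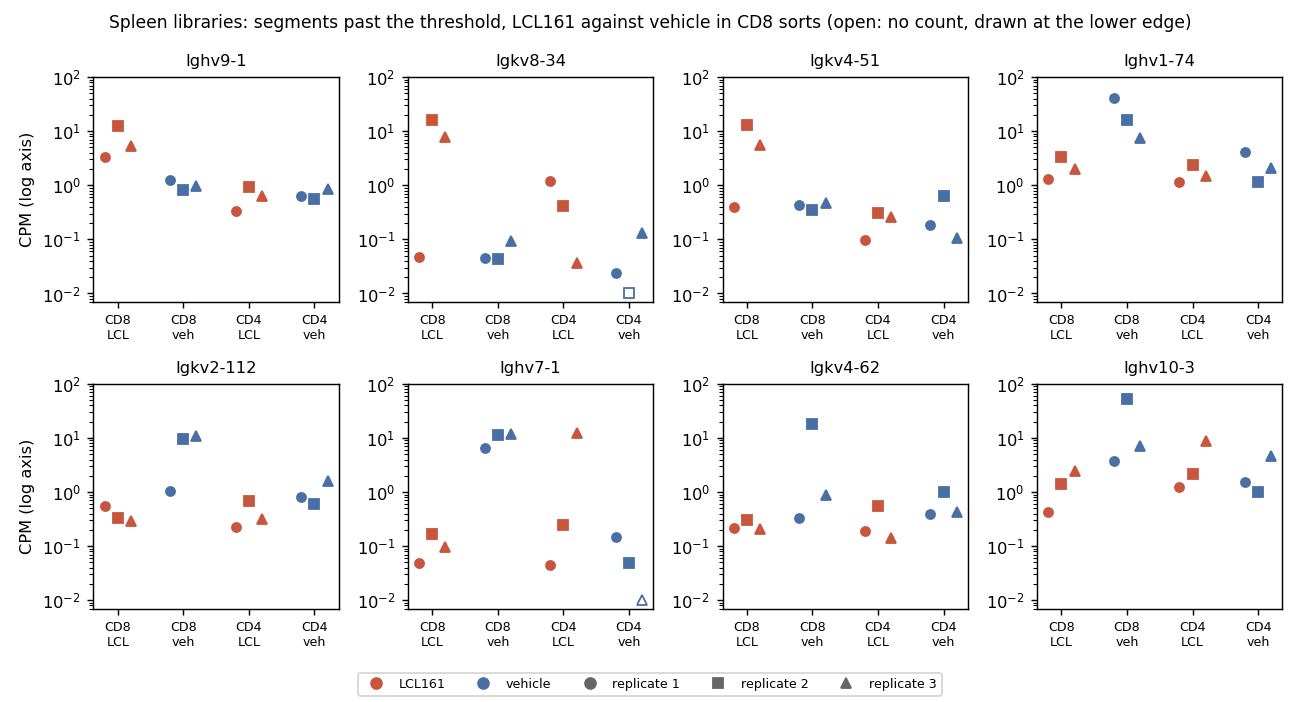
Level (CPM, log axis) of 8 segments called between LCL161 and vehicle in spleen CD8 libraries, with spleen CD4 libraries beside them. Dots are libraries, and open dots at the lower edge mark libraries with no count. Ighv7-1 is at 0.05 to 0.16 CPM with LCL161 and 6.59 to 11.9 CPM with vehicle in CD8 libraries, and Igkv8-34 is high in LCL161 libraries 2 and 3 alone among the CD8 libraries.

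The number of segments called in spleen CD8 rested on single libraries. With LCL161 libraries 2 and 3 summed to 1, only Ighv1-74 was called (adjusted p = 0.0214). Without LCL161 library 1, 2 or 3 there were 5, 1 and 1, and without vehicle library 1, 2 or 3 there were 10, 4 and 5. Igkv14-111, at 60.6 to 79.2 CPM with LCL161 and 264 to 779 CPM with vehicle, did not overlap between groups but did not pass (-2.99 ± 1.18, adjusted p = 0.121). None of the 16 B cell identity genes, 10 plasma cell genes or 12 constant genes passed in this comparison, while Xcr1 and Zbtb46, dendritic cell genes, were lower at -2.28 and -1.76. Bcl6, a germinal center regulator that other cells also express, was lower at -1.60 ± 0.30 (adjusted p = 0.00479).

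In the other 3 populations no segment was called between LCL161 and vehicle. In spleen CD4 libraries the segments summed to 2588 ± 1072 CPM with LCL161 and 2050 ± 329 CPM with vehicle, with overlap, where 0.431% of all genes tested were called, 0.238% higher and 0.193% lower. An unadjusted p under 0.05 was found for 30 of the 188 segments and for 15.9% of all genes tested, and DESeq2 called 3 segments, where it called 3.9% of all genes with an adjusted p. Ighv2-5 came closest, with 0.51, 1.66 and 0.44 CPM with LCL161 and 18.0, 5.80 and 2.19 CPM with vehicle (-3.30 ± 0.91, adjusted p = 0.111).

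In tumor CD4 libraries the segments summed to 22.7 ± 14.8 CPM with LCL161 and 133 ± 111 CPM with vehicle, 5.86-fold lower with overlap, since vehicle library 1 was at 13.5 CPM. The ratio was 3.67 without vehicle library 2 and 9.15 without LCL161 library 1. No segment was called, where 0.322% of all genes tested were, 0.114% higher and 0.208% lower. An unadjusted p under 0.05 was found for 41 of the 188 segments and for 14.1% of all genes, and DESeq2 called 16 segments, all lower, where it called 4.32% of genes. Igkv14-111 came closest at -8.54 ± 1.90 (adjusted p = 0.0595).

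In tumor CD8 libraries the segments summed to 43.5 ± 47.8 CPM with LCL161 and 9.40 ± 1.84 CPM with vehicle, 4.63-fold higher with overlap, and 1.71-fold higher without LCL161 library 3. Heavy segments stood at 3.11, 6.47 and 29.4 CPM with LCL161 and 2.01, 3.03 and 1.45 CPM with vehicle. The groups were apart by a margin of few counts, and the heavy mean was 13.0 ± 14.3 CPM with LCL161, or 4.79 CPM without library 3, and 2.16 ± 0.803 CPM with vehicle. No segment was called, where 0.248% of all genes tested were, 0.233% higher and 0.0149% lower. An unadjusted p under 0.05 was found for 13 of the 188 segments and for 10.7% of all genes, and DESeq2 called 3 segments, all higher, where it called 2.62% of genes. Igkv4-68 came closest, with 0.801, 0.416 and 0.353 CPM with LCL161 and 0.0594, 0.00 and 0.0183 CPM with vehicle (4.64 ± 1.10, adjusted p = 0.0890). None of the B cell identity or constant genes was called in these 3 comparisons.

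The differences between these effects were tested as interactions. Between tumor and spleen, no segment passed in CD4 or CD8 libraries, where 0.00991% and 0.0248% of all genes tested were called. An unadjusted p under 0.05 was found for 41 segments and 10.2% of all genes in CD4, and for 23 segments and 9.04% of all genes in CD8. DESeq2 called 2 segments in CD4 and 3 in CD8, where it called 0.68% and 1.14% of genes. Between CD8 and CD4, no segment passed in spleen or tumor, where 0.292% (0.0595% higher, 0.233% lower) and 0% of all genes tested were called. An unadjusted p under 0.05 was found for 49 segments and 12.1% of all genes in spleen, and for 45 segments and 5.53% of all genes in tumor. DESeq2 called 5 segments in spleen and 6 in tumor, where it called 2.87% and 0.203% of genes. Ighv7-1 came closest in spleen, at -12.38 ± 2.32 (adjusted p = 0.0505). The effects of LCL161 in CD8 and CD4 spleen libraries were therefore not shown to differ for any segment by edgeR.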

How the data were processed

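The authors deposited 1 table of expected counts per gene for 24 libraries, with 55025 gene symbols, and each column name matched 1 sample. Per the submitters' processing notes, reads were trimmed with cutadapt and aligned to GRCm38 with STAR 2.7.3a. No label names the counting tool, its annotation or its strand setting, and a counter that shares reads among near-identical segments would spread their counts. Of the non-zero values, 52.7% were not whole, and counts were rounded for testing.

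The segments and gene lists were chosen with earlier results of these data known. The test was edgeR's quasi-likelihood test (version 4.0.16, R 4.3.3), with filterByExpr (minimum count 10, 20174 genes kept), TMM scaling (factors 0.939 to 1.05) and a robust fit of 8 group means to all 24 libraries (16 residual degrees of freedom, common coefficient of biological variation 0.33). Benjamini-Hochberg adjustment ran over all genes in each of 12 contrasts, with a threshold of 0.05. CPM use TMM-scaled library sizes. Folds against groups with no count use a floor of 3 counts per library. Intervals are Wilson 95% intervals and cover counting error only. Summed levels, shares and diversity are described without a test. An exact permutation test of 3 against 3 libraries could not go below 0.10. No 2 replicates agreed within counting error (chi-square per gene 13.0 to 135), and no library was left out. Coordinates, exons and sequences are from GENCODE M21.

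Named segments are the 10 with the highest total, the top segment of each library, the 3 highest per group, up to 5 called each way per contrast by adjusted p, and those at the edge of the rule. Ighv1-78, Ighv1-39, Ighv6-3 and others described as leading heavy segments were chosen after their values were seen. Alternatives were RLE scaling, no filter, library sizes without immunoglobulin genes, DESeq2 1.42.0, only the libraries compared, replicate blocks, each library left out, other diversity measures and other totals. The sum of 2 spleen libraries and shares per base of exon were chosen after seeing the data. Results of some single genes outside the segments are not reported here. The fit was checked on simulated data. Diversity, overlaps and figures used scipy 1.17.1, pandas 2.3.3, numpy 2.4.6 and matplotlib 3.10.9 under Python 3.11.15.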

Additional observations from a re-analysis of the deposited data

How the results depend on the processing

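Counts of called segments depended on the tool and on single libraries. In place of edgeR's 21 calls in spleen CD8 (LCL161 against vehicle), there were 7 with no filter on low counts, 9 with the replicate block and 1 with LCL161 libraries 2 and 3 summed. In the 8 comparisons tested, samples of the same number had correlations of -0.168 to 0.0986. Among 4 further pairs of LCL161 groups, which were not tested, tumor and spleen CD8 had the highest (0.112, 0.124 and 0.166). Tumor and spleen CD4 with LCL161 had 0.00483, 0.112 and 0.0882. These values lie close together, so whether samples of the same number vary together depends on the cut chosen. With the block within treatment, the difference of LCL161 effects between tumor and spleen CD8 libraries still had 0 called segments. In vehicle tumor CD8 against CD4, in place of 7 calls, there were 2 with no filter, 3 with the replicate block, 3 with the block within treatment, 42 by DESeq2, and 0 with only the libraries compared, where 6 segments passed the filter. With only the libraries compared there were also 31 calls between tumor and spleen in vehicle CD4 and 26 between CD8 and CD4 in vehicle spleen (21 higher, 5 lower). DESeq2 called 3, 16 and 3 segments in spleen CD4, tumor CD4 and tumor CD8 between LCL161 and vehicle. For the differences of effects it called 2 and 3 between tumor and spleen (CD4, CD8) and 5 and 6 between CD8 and CD4 (spleen, tumor). Leaving out single libraries gave 1 to 10 calls in spleen CD8 and 0 to 1 in tumor CD4 between LCL161 and vehicle. It gave 58 to 110 in vehicle CD4 between tumor and spleen, 1 to 13 and 0 to 11 between CD8 and CD4 in spleen and tumor, and 0 to 2 for the difference of effects in spleen. RLE scaling and library sizes without immunoglobulin genes kept each count within 1.5 times. Of 393 values of 31 named segment results under the alternatives, 287 kept direction and call, 106 kept the direction and lost the call, and 0 reversed. Ighv1-74 in spleen CD8 between LCL161 and vehicle kept its call under each alternative run. Mean diversity moved with its measure. The unbiased inverse Simpson index gave 28.4 in tumor CD4 LCL161, 43.1 in spleen CD8 LCL161, 25.4 in spleen CD8 vehicle, 28.4 in spleen CD4 LCL161 and 18.4 in spleen CD4 vehicle libraries. A draw of 172 counts gave 49.4 segments in tumor CD8 vehicle, 52.3 in tumor CD4 LCL161 and 56.6 in spleen CD4 vehicle libraries. With the 113 segments that had at least 1000 counts, the effective number was 32.6 in tumor CD4 LCL161, 56.8 in spleen CD8 LCL161, 45.3 in spleen CD4 LCL161 and 37.0 in spleen CD4 vehicle libraries, and the top share was 11.1% in tumor CD4 LCL161 libraries. Causes of these changes were not tested. In tumor, where libraries held 178 to 4573 segment counts, low segments were not detectable at this depth.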
